A study of Homo sapiens with 6 samples.

Results

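Interferon-stimulated genes were examined in A549 cells, a human lung adenocarcinoma cell line, with and without overexpression of the cytokine gene IL17D. The members are 41 genes known to be induced by interferon, among them the OAS, IFIT, IFITM and MX families. Each was found by its gene name, and all 41 were present among the 58735 genes of the count table. Of these, 26 had enough counts to be tested, out of 15754 tested genes in all.

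RNA was sequenced from 3 libraries of A549 cells that carried an empty lentiviral vector (control) and 3 libraries of A549 cells that carried the same type of vector with the IL17D open reading frame, amplified from cDNA of H82 cells (IL17D). The forward primer listed for this reading frame encodes a FLAG tag, and the paper blotted for Flag in transduced A549 cells. The vector backbone also encodes GFP and drives expression from the human PGK promoter, and both groups were transduced cells grown in RPMI1640 medium with serum. The sources do not say whether a group was a pool or a clone, nor whether its libraries came from separate cultures, so the p-values measure the spread between these libraries, which may be technical. The libraries held 14319398 to 16521021 counts. IL17D itself had 18 to 34 counts in the control libraries and 26772 to 32155 in the IL17D libraries. The epithelial keratin genes KRT7, KRT8 and KRT18 had at least 22453 counts in every library, whereas EPCAM had 9 to 21 and KRT19 3 to 11. KRT7 and KRT8 lay slightly lower in all IL17D libraries (log2 fold changes -0.07 and -0.06, edgeR adjusted p = 0.280 and 0.265), and their part in the results was not tested. The leukocyte genes PTPRC and CD3E had no count, and CD14 had 8 to 20. Of the fibroblast genes, COL1A1 had 274 to 394 counts per library, whereas COL1A2 had 0 to 2, COL3A1 1 to 8 and PDGFRB 3 to 10. The endothelial genes PECAM1, CDH5 and VWF had at most 9.

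Interferons are secreted when a cell senses viral nucleic acid. They bind receptors coupled to the kinases JAK1, JAK2 and TYK2, and type I and type III interferons activate STAT2, which joins IRF9 in the complex ISGF3. ISGF3 binds the interferon-stimulated response element (ISRE) near the start of its target genes, and the products block viral entry, translation, replication or release. Many of these genes also keep a low level of expression without any added interferon.

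The promoter sequences of the members were searched for this element. RefSeq windows from 250 bases before to 50 bases after the gene start (GRCh38.p14) were at hand for 33 of the 41 members, and 35116 windows were searched in all. The ISRE core searched was GAAA, any 2 bases and GAAA, or on the other strand TTTC, any 2 bases and TTTC, and overlapping matches were counted. It occurred in 20 of the 33 members (60.6%) and in 3.57% of all windows. The core of the gamma-activated site, an element of interferon gamma target genes, TTCNNNGAA, which reads the same on both strands, occurred in 9 members (27.3%) and in 7.66% of all windows. A match describes the letters only and is not a measured binding site, and RefSeq gene starts can differ from those of the count table. The stretches around the ISRE cores of 7 members are printed 5′ to 3′ with the matches in capitals, all from before the gene start. They were chosen to set members with many counts beside members with none, and run from OAS3, the member with the most counts, to IFI44L and EPSTI1, which were never counted.
OAS3 (chr12:112938311-112938473, plus strand): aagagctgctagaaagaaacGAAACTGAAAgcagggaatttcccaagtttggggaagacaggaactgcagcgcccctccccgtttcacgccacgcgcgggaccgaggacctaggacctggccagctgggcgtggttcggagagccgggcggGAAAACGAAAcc
ISG15 (chr1:1013364-1013419, plus strand): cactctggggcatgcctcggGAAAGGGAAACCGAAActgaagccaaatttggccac
IFIT1 (chr10:89392487-89392549, plus strand): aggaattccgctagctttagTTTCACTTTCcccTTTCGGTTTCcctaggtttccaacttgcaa
IFITM3 (chr11:320866-320932, minus strand): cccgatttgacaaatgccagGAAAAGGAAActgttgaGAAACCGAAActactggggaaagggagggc
PARP14 (chr3:122680790-122680838, plus strand): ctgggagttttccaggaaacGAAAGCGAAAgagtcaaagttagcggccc
IFI44L (chr1:78620264-78620404, plus strand): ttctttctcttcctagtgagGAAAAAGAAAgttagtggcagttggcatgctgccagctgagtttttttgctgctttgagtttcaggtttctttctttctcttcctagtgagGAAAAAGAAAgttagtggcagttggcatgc
EPSTI1 (chr13:42992262-42992311, minus strand): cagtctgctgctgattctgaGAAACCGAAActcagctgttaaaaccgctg
Both ISG15 matches overlap, and the IFIT1 matches lie on the opposite strand to those of OAS3. IFI44L carries the same 10 letters at both of its matches. An ISRE core was present in 13 of 22 tested members with a window and in 7 of 11 untested members with a window. The 9 tested members without an ISRE core in their windows were OAS1, STAT2, IRF1, IRF9, IFI35, DDX58, HERC6, PARP9 and CMPK2. Of these, OAS1, IRF1, IRF9 and IFI35 had the gamma-activated site core.

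Expression of the members was uneven. OAS3 and OAS1, 2',5'-oligoadenylate synthetases that activate RNase L on double-stranded RNA, held 53.1% of all counts on the 41 genes. At the other end, XAF1, IFI44L and EPSTI1 were at 0 throughout. In CPM, the counts scaled to a common library size, the 3 counts that a 0 still allows correspond to 0.182 to 0.210, a limit for counting error alone. The 15 untested members had at most 13 counts in a library. These were the 3 genes without a count and IFI16, IFI27, IFI44, IFITM1, MX1, MX2, OAS2, OASL, BST2, DHX58, SAMD9L and RSAD2.

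**Figure D1:**
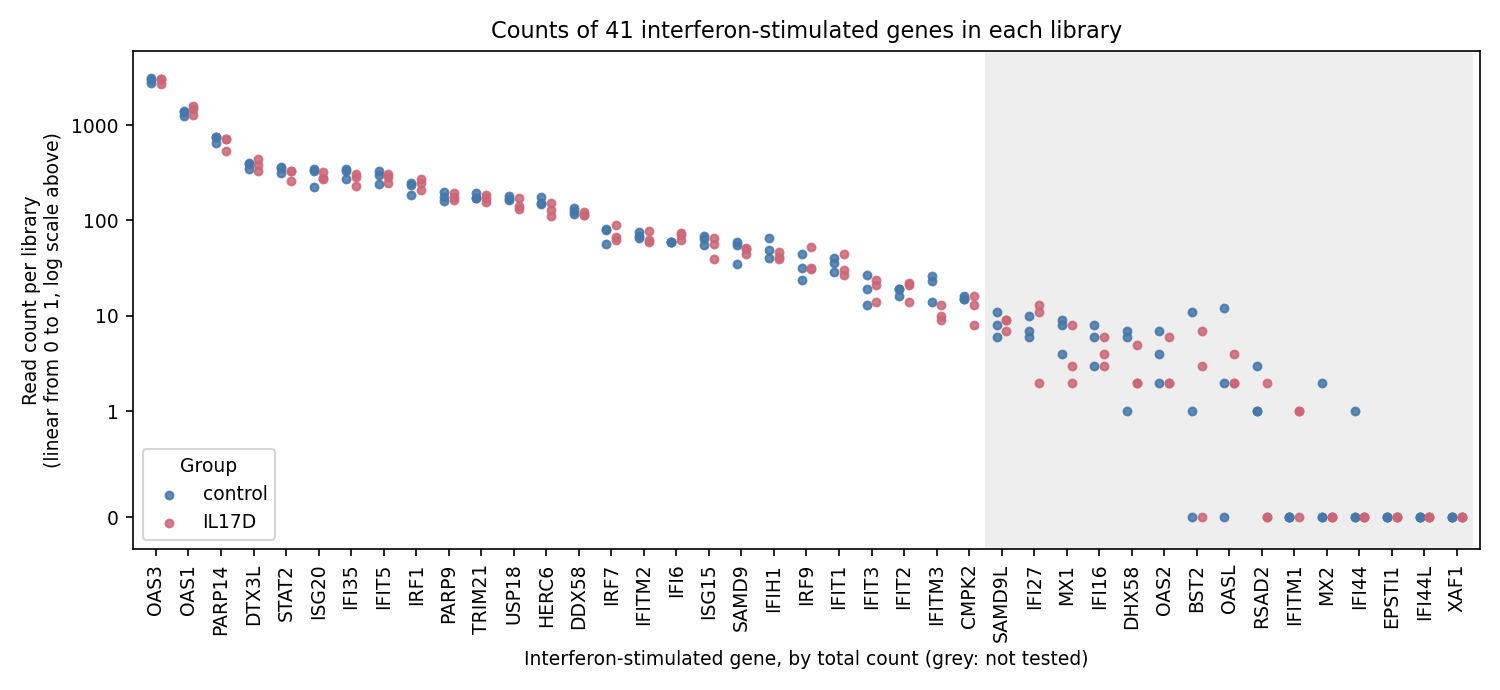
Read counts of the 41 interferon-stimulated genes in each of the 6 libraries, ordered by total count, on a vertical axis that is linear up to 1 and logarithmic above. Blue points are control and red points IL17D libraries, and the grey field marks the 15 genes that were not tested. Counts range from 3080 for OAS3 in control replicate 3 down to 0, and the genes in the grey field have at most 13 counts in a library.

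Levels of different genes were compared per length, as CPM per kilobase of the gene length that the authors list. OAS3 led with 23.0 ± 0.560 CPM per kb in control and 22.6 ± 0.334 in IL17D cells (SD, n = 3 each). OAS1 followed with 17.3 ± 0.246 and 18.5 ± 0.816 (SD, n = 3 each), and IFI35 came next with 10.2 ± 0.669 and 8.74 ± 0.603 CPM per kb (SD, n = 3 each). The 6 libraries of each of these genes did not overlap those of the gene below it. TRIM21 and USP18 completed the 5 highest levels, and from TRIM21 down every gene overlapped its lower neighbour in at least 1 library. Among the tested members, 9 lay above the median level of all tested genes (4.15 CPM per kb) and 17 below it. The lowest level was that of CMPK2, with 0.229 ± 0.0134 CPM per kb in control cells (SD, n = 3).

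Members that lie side by side in the genome differed widely in counts. On chromosome 12, OAS1, OAS3 and OAS2 lie within 105 kb (112906777 to 113011723, GRCh38). OAS2 had 2 to 7 counts per library, while OAS3 had 2703 to 3080 and OAS1 had 1228 to 1581. On chromosome 10, the IFIT genes, which encode proteins that bind viral RNA, lie within 137 kb (89283694 to 89421001), and IFIT5 held 79.8% of their counts. In the pair of SAMD9 and SAMD9L on chromosome 7, which encode related antiviral proteins, SAMD9 held 85.5% of the counts. PARP9, DTX3L and PARP14 on chromosome 3 (122527924 to 122730840) were all expressed. Of these, PARP9 and DTX3L encode partners in ADP-ribosylation and ubiquitylation, start next to each other on opposite strands and share 217 exon bases.

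No member changed in IL17D cells at an adjusted p under 0.05. Of the 26 tested members, 0 were higher and 0 were lower by the quasi-likelihood test of edgeR, adjusted over all tested genes by Benjamini-Hochberg, and the smallest adjusted p was 0.308, that of IFITM3. Of all tested genes, 0.673% were higher and 0.908% lower by this rule. DESeq2's Wald test and limma voom on the same genes also called 0 members in either direction. DESeq2 gave no adjusted p for some members with few counts, among them IFITM3, IRF9 and CMPK2, and so could not call those. At an unadjusted p under 0.05, 5 members were lower and 0 were higher with edgeR (19.2% and none of 26), where 5.99% of all tested genes were lower and 5.59% higher. At the same unadjusted threshold, DESeq2 found 2 members lower and limma voom 5, and neither found any higher. With a filter of 10 counts in every library, which left out IFITM3 and CMPK2, edgeR found 3 of 24 members lower. The number of members lower at an unadjusted p depended on single libraries. It was 1 without control replicate 1 or control replicate 3, 2 without IL17D replicate 3, and 3 without control replicate 2 or IL17D replicate 1.

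Most estimates lay slightly below 0. A log2 fold change below 0 was found for 20 of the 26 tested members (76.9%) and for 50.1% of all tested genes. With 1 library left out, the count ranged from 15 of 27 (without control replicate 1) to 22 of 27 (without IL17D replicate 3). The median log2 fold change of the tested members was -0.05, against -0.00044 over all tested genes. These counts describe the list and carry no test. The groups did not overlap in CPM for 5 members. IFITM3, IFI35, PARP14 and STAT2 (15.4% of 26) were lower in all 3 IL17D libraries than in any control library, where 8.31% of all tested genes were, and OAS1 (3.85%) was higher in all 3, where 7.48% of all tested genes were. IFITM3 and CMPK2 passed the filter on low counts through their control libraries, so the filter itself leaned both towards lower. With 10 counts asked of every library, which left both out, 18 of 24 members had a log2 fold change below 0. In cell cultures measured in bulk, fewer cells that express a gene and less RNA per cell cannot be told apart.

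**Figure D2:**
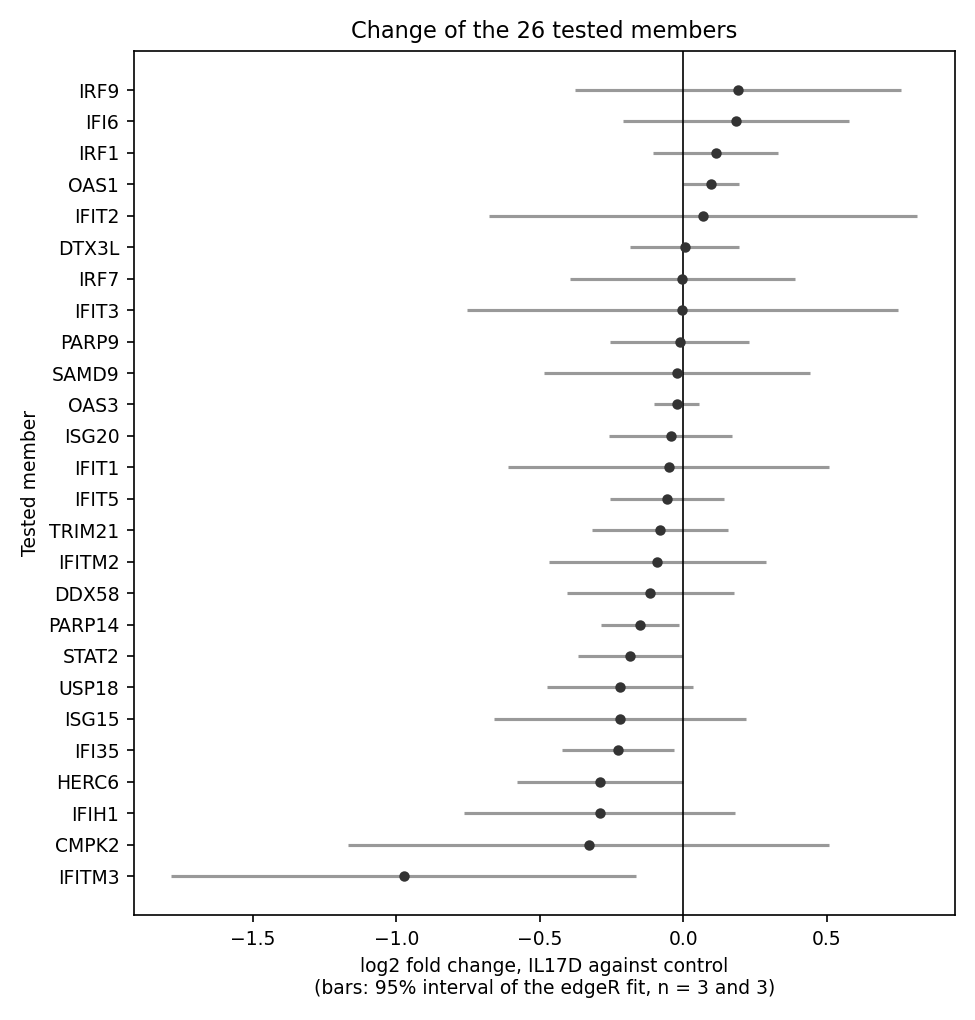
Log2 fold change of the 26 tested members in IL17D against control cells, each with its 95% interval from the edgeR fit (3 libraries a group). Points range from -0.98 for IFITM3 to 0.19 for IRF9; the intervals of 5 members lie below 0 and none lies above it.

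The intervals give the size of change for each gene from the spread between these libraries, and they are not adjusted for the number of genes. If the libraries are technical, the intervals do not cover the spread between cultures. The 95% interval of the fold change lay within 2-fold in either direction for 24 of the 26 tested members and within 1.5-fold for 18. The intervals of IFITM3 and CMPK2 reached beyond 2-fold. The narrowest interval was that of OAS3, 0.932 to 1.04 in fold. Of the tested members, 12 had fewer than 100 counts in every library. By width on the log2 scale, their intervals ranged from 0.722 to 1.22 in fold for IFITM2, the narrowest, to 0.445 to 1.42 for CMPK2, the widest.

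The transcription factors all lay below the median level per kb of the tested genes, from percentile 14.4 for IRF9 to 45.5 for STAT2. STAT2 (ENSG00000170581, chromosome 12, 56341597 to 56360155), the subunit of ISGF3 that provides its activation domain, had 352, 314 and 367 counts in the control libraries, given throughout in the order of replicates 1 to 3, against 329, 328 and 259 in the IL17D libraries, with means of 22.1 ± 0.656 and 19.4 ± 1.05 CPM (SD, n = 3 each). In CPM, all IL17D libraries lay below all control libraries. The log2 fold change was -0.19 (SE 0.089, edgeR adjusted p = 0.414). IRF9 (chromosome 14, 24161053 to 24166565), the DNA-binding subunit of ISGF3, had 1.97, 1.66 and 2.80 CPM in control and 3.22, 1.89 and 2.24 CPM in IL17D cells. The groups overlapped, with a log2 fold change of 0.19 (edgeR adjusted p = 0.871), and without IL17D replicate 1 the value was -0.06. Of its exon bases, 48.4% are shared with AL136295.5 on the same strand, so their reads may be split between both genes. IRF7, the factor that amplifies interferon gene transcription, had 5.05, 5.46 and 3.48 CPM in control and 4.07, 5.41 and 4.42 CPM in IL17D cells, nearly the same mean in both groups. IRF1, which also responds to interferon gamma, had 15.3, 12.7 and 14.7 CPM in control and 16.7, 15.1 and 14.5 CPM in IL17D cells. Its log2 fold change was 0.11 (95% interval -0.10 to 0.33), and 1716 of its exon bases lie opposite C5orf56.

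Of the cytosolic RNA sensors of the RIG-I family, DDX58 and IFIH1 both lay below the median level of the tested genes, at percentiles 32.2 and 14.1. Their libraries did not overlap, with 1.61 to 2.14 CPM per kb for DDX58 and 0.464 to 0.795 for IFIH1. DDX58, which encodes RIG-I itself, had a mean of 8.12 ± 1.08 CPM in control and 7.49 ± 0.538 CPM in IL17D cells (SD, n = 3 each). IFIH1, which encodes MDA5, had 4.06, 2.77 and 3.05 CPM in control and 2.86, 2.37 and 2.87 CPM in IL17D cells. Its groups overlapped, and its log2 fold change of -0.29 (95% interval -0.76 to 0.18) was among the 3 lowest. DHX58, which encodes the regulatory member LGP2, had 1, 7 and 6 counts in control and 2, 5 and 2 counts in IL17D libraries and was not tested.

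In the OAS family, both well-expressed genes were measured with narrow intervals. OAS3 (ENSG00000111331) had 184.2, 193 and 192 CPM in control and 184, 186 and 189 CPM in IL17D cells. The values overlapped, with a log2 fold change of -0.02 (SE 0.038). OAS1 (ENSG00000089127, chromosome 12, 112906777 to 112933222) had 84.9, 84.9 and 87.0 CPM in control and 88.9, 96.2 and 89.4 CPM in IL17D cells. It was the only tested member that was higher in every IL17D library than in every control library, by 0.10 on the log2 scale (SE 0.049, edgeR adjusted p = 0.449). OASL, an OAS-like protein that acts with RIG-I, had 12 counts in control replicate 1 and 0 to 4 in the other libraries.

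The groups overlapped for all 4 IFIT genes. IFIT5 had 18.6 ± 1.95 CPM in control and 17.9 ± 0.724 CPM in IL17D cells (SD, n = 3 each), and its interval lay within 1.5-fold. IFIT1, IFIT2 and IFIT3 had means between 1.16 and 2.24 CPM in both groups. Their log2 fold changes were -0.05, 0.07 and -0.0035, with 95% intervals as wide as -0.76 to 0.75 for IFIT3.

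Among the membrane proteins that restrict virus entry and release, IFITM3 had the lowest log2 fold change of all tested members. IFITM3 (ENSG00000142089, chromosome 11, 319669 to 327537) had 23, 14 and 26 counts in control and 10, 13 and 9 counts in IL17D libraries. This corresponds to 1.42, 0.968 and 1.62 CPM against 0.608, 0.791 and 0.631 CPM. All IL17D libraries were lower, with a log2 fold change of -0.98 (SE 0.40, 95% interval -1.79 to -0.16, edgeR adjusted p = 0.308). Its IL17D counts lie near the filter on low counts, which its control libraries passed, and 55.96% of the 31-base stretches of its transcripts also occur in other genes, 23.9% in IFITM2. IFITM2 had 4.50 ± 0.377 CPM in control and 4.22 ± 0.455 CPM in IL17D cells (SD, n = 3 each), and IFITM1 had 1 count in each of 2 IL17D libraries and none elsewhere. The summed counts of the 3 IFITM genes were 89, 82 and 102 in control and 88, 75 and 70 in IL17D libraries. The sums lay apart in CPM, with 5.48 to 6.34 CPM in control and 4.56 to 5.35 CPM in IL17D cells. They include IFITM3, already given as lower in all IL17D libraries, and are no separate result. For IFITM2 alone the groups overlapped. BST2, which encodes tetherin, had 11, 0 and 1 counts in control and 7, 0 and 3 counts in IL17D libraries.

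**Figure D3:**
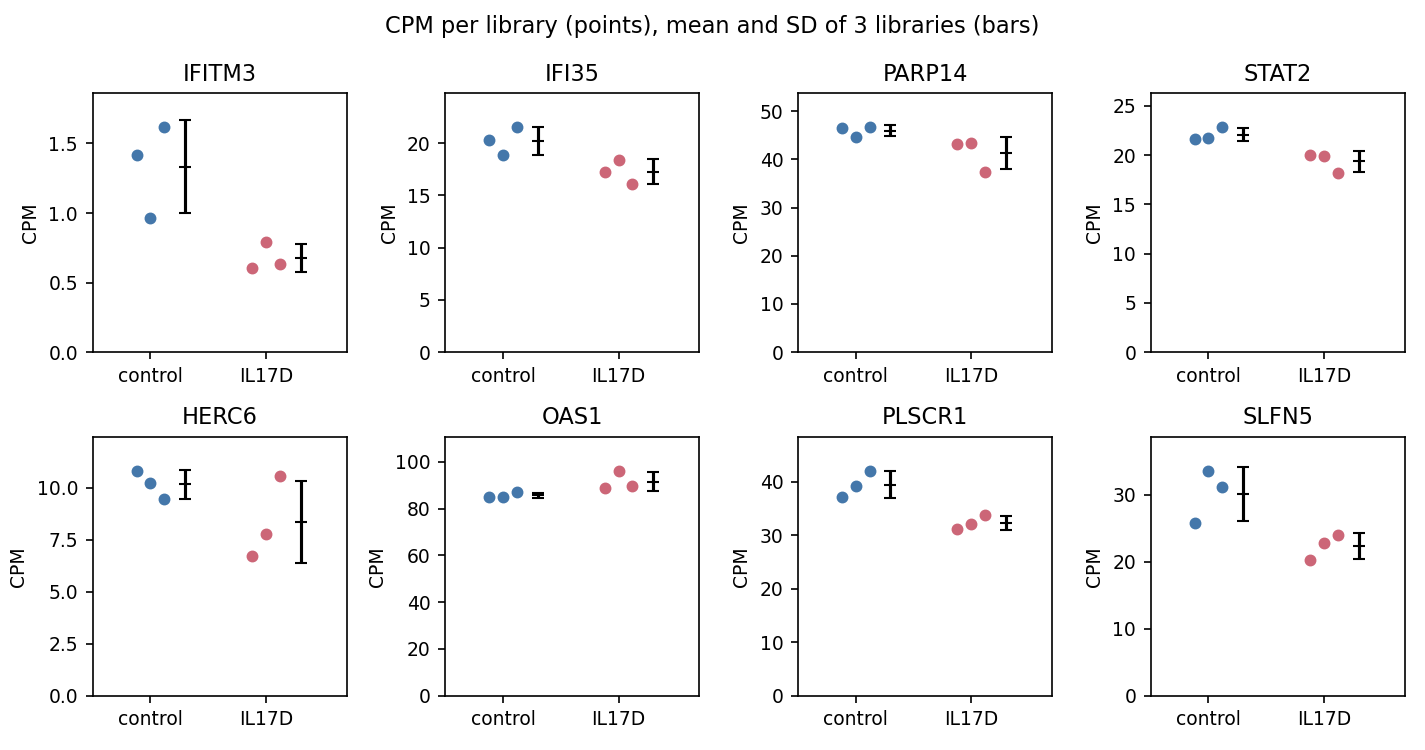
CPM per library for 6 members and for PLSCR1 and SLFN5 of the wider interferon pathway, with every vertical axis starting at 0. Points are libraries (blue control, red IL17D) and bars are the mean and SD of 3 libraries; IFITM3, IFI35, PARP14, STAT2, PLSCR1 and SLFN5 are lower in all IL17D libraries, OAS1 is higher in all of them, and HERC6 overlaps.

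ISG15, USP18 and HERC6 each had a log2 fold change below 0. ISG15, the ubiquitin-like modifier, had 3.99 ± 0.191 CPM in control and 3.44 ± 0.924 CPM in IL17D cells (SD, n = 3 each). USP18, the protease that removes ISG15 and dampens the interferon receptor, had 10.1, 11.7 and 11.1 CPM in control and 8.51, 10.5 and 9.25 CPM in IL17D cells. Its groups overlapped, and its log2 fold change was -0.22 (95% interval -0.47 to 0.04). Of the 31-base stretches of USP18, 28.8% occur in USP41, which had 1 count in all libraries together. HERC6, of the HERC family of ubiquitin ligases, had 10.8, 10.2 and 9.45 CPM in control and 6.75, 7.78 and 10.6 CPM in IL17D cells, where replicate 3 lay among the controls. Its log2 fold change was -0.29 (SE 0.14, edgeR adjusted p = 0.431), -0.48 without IL17D replicate 3 and -0.15 without IL17D replicate 1.

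PARP14 (ENSG00000173193, chromosome 3, 122680618 to 122730840), a mono-ADP-ribosyltransferase, had 46.5, 44.7 and 46.7 CPM in control and 43.2, 43.4 and 37.4 CPM in IL17D cells. The groups lay apart, with a log2 fold change of -0.15 (SE 0.067, edgeR adjusted p = 0.364). Its neighbours had log2 fold changes of 0.0052 for DTX3L (95% interval -0.18 to 0.20) and -0.01 for PARP9 (95% interval -0.25 to 0.23). IFI35 (ENSG00000068079, chromosome 17, 43006725 to 43014456), a leucine zipper protein that partners with NMI, had 20.2, 18.9 and 21.5 CPM in control and 17.3, 18.4 and 16.0 CPM in IL17D cells. The groups lay apart here too, with a log2 fold change of -0.23 (SE 0.096, edgeR adjusted p = 0.323). IFI6, a mitochondrial and endoplasmic reticulum protein that limits apoptosis, had 60 counts in each control library and 62, 73 and 71 in the IL17D libraries. Its log2 fold change was 0.19 (95% interval -0.21 to 0.58).

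TRIM21, a cytosolic antibody receptor and ubiquitin ligase, had 195, 171 and 171 counts in control and 184, 172 and 156 in IL17D libraries, and the groups overlapped in CPM. CMPK2, a mitochondrial nucleotide kinase that starts next to RSAD2, had 15, 15 and 16 counts in control and 16, 13 and 8 counts in IL17D libraries. RSAD2, which encodes viperin, had 0 to 3 counts in every library. ISG20, an RNA exonuclease, had 19.1 ± 3.13 CPM in control and 18.5 ± 1.29 CPM in IL17D cells (SD, n = 3 each). SAMD9 had 3.16 ± 0.647 and 3.13 ± 0.384 CPM (SD, n = 3 each), and SAMD9L 6 to 11 counts per library. IFI27 had 10, 6 and 7 counts in control and 2, 11 and 13 in IL17D libraries, IFI16, a DNA sensor, had 3 to 8 throughout, and IFI44 had 1 count in control replicate 2. MX1, a GTPase that blocks influenza virus, had 4, 9 and 8 counts in control and 3, 2 and 8 counts in IL17D libraries, and MX2 had 2 counts in control replicate 1 and none elsewhere. When all 32373 genes with a count entered the edgeR fit, of which 0.911% were called, none of the 12 untested members with counts was called, and their smallest adjusted p was 0.785. Their smallest unadjusted p was 0.238.

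As a sum, the 41 genes made up 529, 521 and 533 CPM in control and 509, 517 and 514 CPM in IL17D cells, which is 2.67% less on average. OAS1 and OAS3 weigh most in this sum. The other 39 genes summed to 252 ± 8.10 CPM in control and 236 ± 0.862 CPM in IL17D cells (SD, n = 3 each). That sum leaves out OAS1, the only tested member higher in every IL17D library. It keeps PARP14, IFI35, STAT2 and IFITM3, already given as lower in all of them. The sums of 41 and of 39 genes lay apart between the groups and are given without a test, because the members were chosen with earlier results known.

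**Figure D4:**
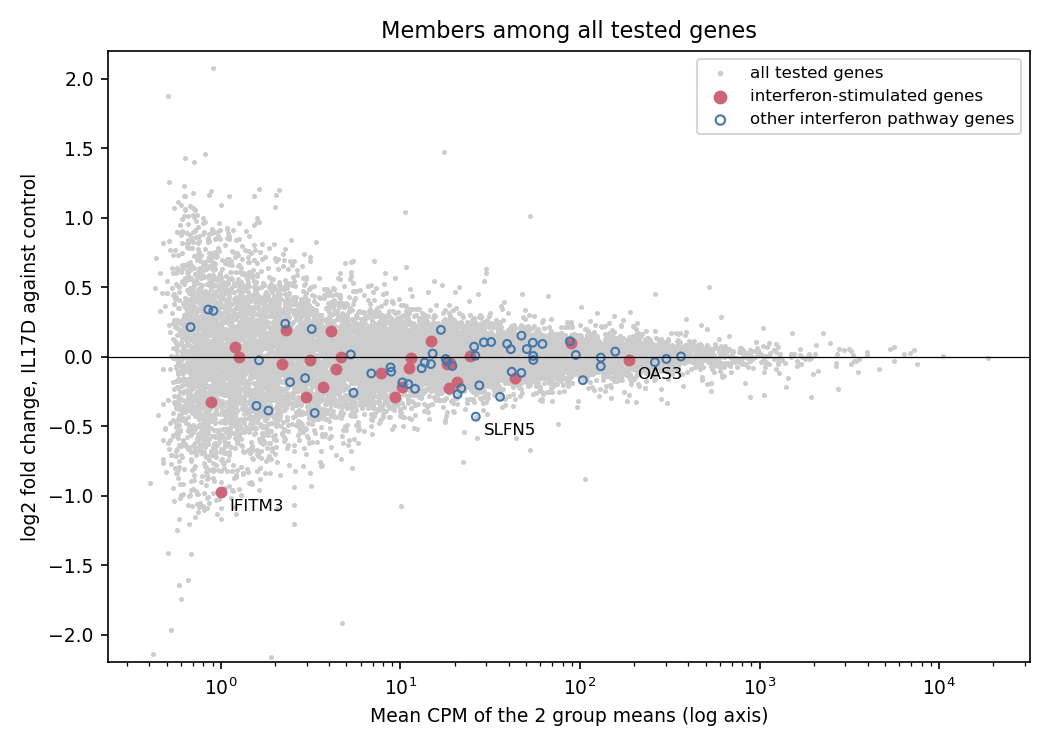
Mean CPM (log axis) against the log2 fold change in IL17D against control cells for all tested genes (grey), the 26 tested interferon-stimulated genes (red) and the 55 tested genes of the wider pathway list (blue rings). IL17D, with a log2 fold change of 10.19, and 2 other genes lie outside the vertical axis; apart from IFITM3 at -0.98, the members lie within 0.33 of 0.

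The wider interferon pathway was read from a list of 88 further genes, of which 55 were tested. At an adjusted p under 0.05 in edgeR, 2 were lower and 0 were higher, where 0.908% of all tested genes were lower and 0.673% higher. At an unadjusted p under 0.05, 7 were lower (12.7%) and 2 higher, where the shares of all tested genes were 5.99% and 5.59%. Of the interferon genes themselves, 16 of 21 had no count in any library, among them IFNB1, IFNG, IFNL1, IFNL2 and IFNL3. A further 4 had 1 or 2 counts in all libraries together. IFNE, an interferon of epithelia that is expressed without infection, was the only one tested, with 1.77 ± 0.283 CPM in control and 1.39 ± 0.229 CPM in IL17D cells (SD, n = 3 each; adjusted p = 0.748 in edgeR). Of the interferon-induced chemokines on the list, CXCL10 had no count, and CXCL11 had 0 counts in each control library and 1, 4 and 2 counts in the IL17D libraries. CXCL11 was too low for the main test, and its adjusted p in the edgeR fit on all counted genes was 0.609.

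All 6 receptor genes had enough counts to be tested, but not all were well expressed. IL10RB had 6 to 24 counts per library (percentile 3.45 of level among tested genes) and IFNLR1 36 to 68 (percentile 15.4). For IL10RB these were 8, 6 and 24 counts in control and 19, 15 and 14 in IL17D libraries. It passed the filter on low counts through its IL17D libraries and control replicate 3, so the filter itself leaned it towards higher. IFNAR1 had 49.0 ± 1.84 CPM in control and 45.2 ± 0.633 CPM in IL17D cells, and IFNAR2, its partner for type I interferon, had 3.09 ± 0.728 and 2.80 ± 0.524 CPM (SD, n = 3 each). The receptor chains for interferon gamma, IFNGR1 and IFNGR2, had log2 fold changes of 0.10 and 0.05. The chains for type III interferon, IFNLR1 and IL10RB, had 0.20 and 0.33 on the same scale, with wide intervals (-0.29 to 0.68 and -0.58 to 1.24). With 1 library left out, IFNLR1 ranged from 0.02 (without control replicate 1) to 0.49 and IL10RB from 0.04 (without control replicate 2) to 1.147, both highest without control replicate 3. The smallest adjusted p of a receptor gene was 0.478 in edgeR, that of IFNAR1, whose IL17D libraries all lay below the control libraries.

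Both genes that passed were lower. SLFN5 (ENSG00000166750, chromosome 17, 35243036 to 35273655), a Schlafen family gene that type I interferon induces, had 25.7, 33.6 and 31.2 CPM in control and 20.2, 22.8 and 24.0 CPM in IL17D cells. It fell by 0.43 on the log2 scale (SE 0.092, edgeR adjusted p = 0.00595), and the call was lost when control replicate 2 (adjusted p = 0.082) or IL17D replicate 1 (adjusted p = 0.076) was left out. PLSCR1 (ENSG00000188313, chromosome 3, 146515180 to 146544864), a phospholipid scramblase with antiviral activity, had 37.1, 39.1 and 42.0 CPM in control and 31.2, 32.0 and 33.7 CPM in IL17D cells. It fell by 0.29 on the log2 scale (SE 0.071, edgeR adjusted p = 0.0243). The call was lost without any of control replicate 2, control replicate 3 or the 3 IL17D replicates, with adjusted p-values of 0.056 to 0.144. Whether these 2 genes differed in their response from the members was not tested.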

How the data were processed

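RNA-seq counts from 6 libraries were analysed, 3 of control and 3 of IL17D-overexpressing A549 cells, grouped by the sample titles. The authors deposited 1 table of read counts per gene without normalization. The submitters' processing notes name Bowtie2 and hg38. The counting tool and strand setting are not given in the sources used here, so a gene and its antisense partner cannot be told apart. All per-sample columns were used. Gene names, coordinates and lengths are those of the table.

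Genes were filtered by edgeR's filterByExpr, libraries scaled by TMM (factors 0.997 to 1.00), and groups compared with the quasi-likelihood test without covariates (R 4.3.3, edgeR 4.0.16), two-sided, with Benjamini-Hochberg adjustment over 15754 genes. CPM are TMM-scaled and errors are the SD of 3 libraries. Standard errors (SE) are the absolute log2 fold change over the square root of the F statistic, and the 95% intervals use the t distribution with the fit's degrees of freedom. Alternatives were DESeq2 size factors, DESeq2 1.42.0, limma 3.58.1 voom, a filter of 1 count in all, a filter of 10 counts per library, a block by replicate number, and omission of each library in turn. The steps were tested on simulated data.

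The members and lists were chosen with earlier results of these data known. Values per library are given for members at an adjusted p, or an unadjusted p, under 0.05, for STAT2, IRF9, IRF7 and IRF1, for the 5 highest levels per kb and for the 3 highest and 3 lowest log2 fold changes. Other members with values were added for their role after their values were seen. Of the pathway list, the receptors and genes at an adjusted p under 0.05 are named, and IFNE, CXCL10 and CXCL11 were added likewise, while 1 further gene of this rule is not reported here. Shared sequence was measured with 31-base stretches of GENCODE release 29 transcripts on either strand. Promoter sequences are from RefSeq (GRCh38.p14).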

Additional observations from a re-analysis of the deposited data

How the results depend on the processing

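Under all alternatives, 0 members passed an adjusted p under 0.05 in either direction, and the lowest adjusted p of any member was 0.157. The number of members lower at an unadjusted p was 5, and it was 2 with DESeq2's Wald test, 3 under the filter of 10 counts per library, and 1 to 5 with 1 library left out. The number higher was 0, and 0 to 1 with 1 library left out. The median log2 fold change was -0.10 on all 38 members with a count, 12 of them not tested in the main fit. Under the other settings it lay between -0.09 and -0.04. With 1 library left out, 145 to 267 genes were called in all (249 with all libraries), and 0 to 2 genes of the pathway list. IRF7 had a log2 fold change of 0.018 with limma voom, and -0.18 to 0.12 with 1 library left out. IRF9 ranged from -0.063 (without IL17D replicate 1) to 0.43 and IFNGR2 from -0.02 to 0.13. DESeq2 gave no adjusted p for some members with few counts, IFITM3 and IRF9 among them. Libraries with the same replicate number did not deviate together (correlations -0.015 to 0.010), so no pairing by number was seen. This check weighs every tested gene alike and cannot exclude a weak shared effect. With the replicate block, 272 genes were called, with 0 members, 4 members lower at an unadjusted p, 19 members below 0, a median of -0.06 and 3 pathway genes.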
